A study of Mus musculus with 4 samples.

Results

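The genes described here take up, carry, export or sense bile acids: 9 genes of the 30406 measured in every library, matched by Ensembl identifier. Slc10a2 encodes the apical sodium-dependent bile acid transporter, Fabp6 the cytosolic ileal bile acid-binding protein, and Slc51a and Slc51b the paired subunits of the basolateral exporter OSTα-OSTβ. Abcc3 (MRP3) and Abcb1a (a P-glycoprotein) are ATP-driven pumps of the basolateral and apical membrane. Nr1h4 encodes the nuclear bile acid receptor FXR, Gpbar1 the cell-surface receptor TGR5, and S1pr2 a sphingosine 1-phosphate receptor that conjugated bile acids can also activate. The rule names the genes by their roles in the pathway and uses no measured value.

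In the ileum, Slc10a2 brings bile acids across the apical membrane, Fabp6 carries them through the cytosol and OSTα-OSTβ releases them toward the blood, while FXR induces the genes of carriage and export. Cholangiocytes, the epithelial cells of the bile duct, are known to have the apical transporter too, and return bile acids from duct bile to the liver. The cell-surface receptors link bile acids to cyclic AMP, secretion and inflammation.

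The data are droplet single-cell counts of unique molecular identifiers (UMIs, 1 per captured RNA molecule) from whole micro-dissected mouse common bile ducts, digested with dispase and protease. One library carries the genotype label Prom1_BcatGOF, a mosaic gain of function of Ctnnb1 (β-catenin), and is called GOF here. The other 3 libraries are wild type (WT 1, WT 2 and WT 3), and no library was treated. The labels give neither age nor sex, nor how many animals each library holds, and Prom1 in the genotype name is the only label of the driver; p-values measure the spread between the WT libraries, which may be technical.

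The GOF library held 10796 barcodes and 113596685 UMIs, and the WT libraries 2649 to 6253 barcodes and 9558637 to 43737469 UMIs. After filters 9208 GOF and 2056 to 4328 WT cells remained, and 5 to 19 barcodes were shared between any pair of libraries. Marker gates called 4824 GOF epithelial cells and 2909, 1456 and 886 in WT 1, WT 2 and WT 3, with a mean of 6.12 to 7.72 of 10 epithelial markers detected per cell. The gates called no hepatocyte and no enterocyte in any library, and the enterocyte genes Alpi and Apoa4 were at 0 in the epithelium of all 4, while the summed level of 7 enterocyte genes, mostly Vil1, was 38.5 to 52.4 CPM. Between 5.36% and 24.6% of cells per library met no gate, the most in WT 3. The median mitochondrial share was 3.01% in GOF and 10.1% to 14.8% in WT. Per the file headers the GOF counts came from Cell Ranger 7.0.0 and the WT counts from 3.0.2, so genotype and counting software cannot be told apart. The labels do not give the Ctnnb1 allele, and its own counts were not used to check the genotype. A gate on summed UMIs of the Wnt target genes Lgr5, Notum, Axin2 and Nkd1 is called the Lgr5 and Notum gate here. Its cells were 32.0% of GOF epithelial cells with at least 2000 UMIs and at most 0.153% of those in any WT library.

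The promoters of Slc10a2 and Fabp6 are shown because each holds a motif that is rare among promoters, and because the counts of both genes lay mostly in epithelial and tuft cells. The windows were taken from RefSeq on GRCm38.p6, 250 bases before to 50 after a RefSeq start site. Of the 9 members 8 had one, and Abcc3 had none. The Nr1h4 window (chr10:89506609-89506908) lies inside the gene model used here, which starts at 89533585 on the minus strand. The Abcb1a window (chr5:8566841-8567140) ends well before its model's start at 8660077. Only the part upstream of every annotated start is printed, 5′ to 3′ on the gene's strand, with the motif in capitals. Slc10a2 lies on the minus strand of chromosome 8 (5083219 to 5105351, 6 exons), and the printed part is chr8:5105352-5105537. Fabp6 lies on the minus strand of chromosome 11 (43596049 to 43601540, 4 exons), and the printed part is chr11:43601563-43601812.
Slc10a2: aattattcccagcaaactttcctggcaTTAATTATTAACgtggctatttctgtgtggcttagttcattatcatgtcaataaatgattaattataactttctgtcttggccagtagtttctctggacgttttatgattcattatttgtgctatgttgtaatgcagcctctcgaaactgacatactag
Fabp6: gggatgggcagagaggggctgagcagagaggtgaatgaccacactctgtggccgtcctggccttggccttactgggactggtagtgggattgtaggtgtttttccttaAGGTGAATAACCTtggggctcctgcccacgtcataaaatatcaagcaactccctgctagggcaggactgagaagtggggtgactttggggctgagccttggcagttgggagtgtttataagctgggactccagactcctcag
In Slc10a2 the capitals mark the core of the site of HNF1, a hepatic and biliary homeobox factor (letters searched: GTTAAT, any base, then ATTAA, both strands; the match is on the strand opposite the gene). It was present in 20 of 32851 promoter windows of the same length, or 0.0609%. In Fabp6 the capitals mark the inverted repeat bound by FXR (letters searched: AGGTNA, any base, then TNACCT), present in 7 windows, or 0.0213%. None of the 8 member windows held the TCF core CTTTGATC, which was present in 0.938% of windows. A match describes the letters only.

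Slc10a2, the uptake step, was present in duct epithelium and tuft cells and was at or near 0 in the other classes with large cell numbers. In epithelial cells the WT libraries had 23.1, 16 and 9.68 UMIs of the gene per 1000000 UMIs of the class (CPM; 781, 180 and 47 UMIs), and GOF had 44.8 CPM (2699 UMIs). The GOF value lay above all 3 WT values, of which WT 1 was the highest and WT 3 the lowest. In tuft cells, a rare chemosensory epithelial type, Slc10a2 stood at 26.8, 14.1 and 14.7 CPM in WT and 31.8 in GOF, on 44, 11, 4 and 127 UMIs. WT fibroblasts and WT macrophages held 0 Slc10a2 UMIs in 489 and 318 cells, so that the pooled WT epithelial level was at least 13.1-fold and at least 11.3-fold higher, against a floor of 3 counts over each pooled class. GOF macrophages held 11 UMIs in 1239 cells, 0.973 CPM. Pancreatic acinar cells were an exception on few counts: 4 Slc10a2 UMIs in 31 WT 1 cells (45.9 CPM) and 1 in 115 WT 3 cells, beside 3 and 3 Fabp6 UMIs, and the part of RNA from other cells in these was not tested. Pooled tuft and other epithelial cells of WT could not be told apart by counting error, with a ratio of 0.921 (95% interval 0.708 to 1.22).

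Fabp6, the cytosolic carrier, was likewise counted in epithelial and tuft cells, with GOF and WT in the opposite order. Its epithelial levels were 27.6, 16 and 12.8 CPM in WT 1, WT 2 and WT 3 (932, 181 and 62 UMIs) and 6.29 CPM in GOF (379 UMIs). GOF was below every WT library. Tuft cells held 20.7, 16.7 and 0 CPM in WT and 5.76 in GOF, and the 0 in WT 3 rests on 51 cells. Fibroblasts, mesothelial cells, macrophages and endothelial cells held 0 Fabp6 UMIs in all 4 libraries. The pooled WT epithelial level was at least 15.3-fold, 14.8-fold and 13.1-fold higher than in fibroblasts, mesothelial cells and macrophages.

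The exporter subunits were hardly counted. Slc51a had 11 epithelial UMIs in GOF and 3, 2 and 1 in WT. Slc51b had 6 in GOF and 3, 0 and 0 in WT. Both stayed below the filter on low counts in each comparison between groups within a class, and no fold is given. Reads were taken from the end of the transcript, and the 3′ untranslated part of the gene model is short for some members: 83 bases for Slc51b and 35 for Gpbar1, against a median of 854 over 21585 coding genes, while Slc51a has 1238 and the well-counted Fabp6 only 63. Slc51a and Slc51b each overlap a gene on the other strand, Pcyt1a and Rasl12. The part of these features in the counts was not tested, and at this depth a low level cannot be told from none.

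Abcc3, the basolateral pump, was counted in epithelium, in tuft cells and in macrophages. Its epithelial levels were 136, 93.5 and 67.1 CPM in WT and 78.0 in GOF, inside the WT range. Tuft cells gave 119, 73.2 and 91.6 CPM in WT and 73.4 in GOF. Macrophages gave 37.7, 45.7 and 59.8 CPM in WT and 14.1 in GOF, where GOF lay below all 3.

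Abcb1a, the apical pump best known for drug efflux, was highest in blood endothelium, where it marks vessel barriers. Levels there were 426, 231 and 316 CPM in WT and 319 in GOF, on 31 to 75 cells. Epithelium had 38.7, 56.0 and 42.2 CPM in WT (1306, 632 and 205 UMIs) and 17.7 in GOF (1066 UMIs). Abcb1a has a close paralog, Abcb1b, and the sources used here do not give how reads that match both were assigned. In GOF the epithelial level was below all 3 WT levels, while the endothelial level was inside the WT range. T and NK cells of GOF held 138 CPM on 71 UMIs in 166 cells, and those of WT 1 held 20.8 CPM on 2 UMIs in 44 cells.

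The sensors were spread over different compartments. Nr1h4 had nearly equal epithelial levels in WT, 22.2, 21.5 and 22.2 CPM (22.0 ± 0.388, SD, n = 3), and 62.5 CPM in GOF. It was also counted in WT fibroblasts (9.55, 14.4 and 5.67 CPM) and mesothelial cells (4.03, 8.27 and 10.3 CPM), on 2 to 17 UMIs per library. Gpbar1 was a stromal gene here: GOF fibroblasts, mesothelial cells and smooth muscle with pericytes held 39, 15 and 8 UMIs, and the epithelium 4 UMIs in 4824 cells. The WT libraries held 7, 10 and 3 Gpbar1 UMIs in all cells kept, of which 1 was epithelial. Macrophages, a cell type often studied for TGR5, held 0 Gpbar1 UMIs in 1239 GOF and 318 WT cells. S1pr2 was low in epithelium, at 2.10, 0.975 and 1.24 CPM in WT and 2.81 in GOF, and higher in fibroblasts, at 31.0, 22.1 and 53.9 CPM in WT and 20.7 in GOF.

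**Figure D1:**
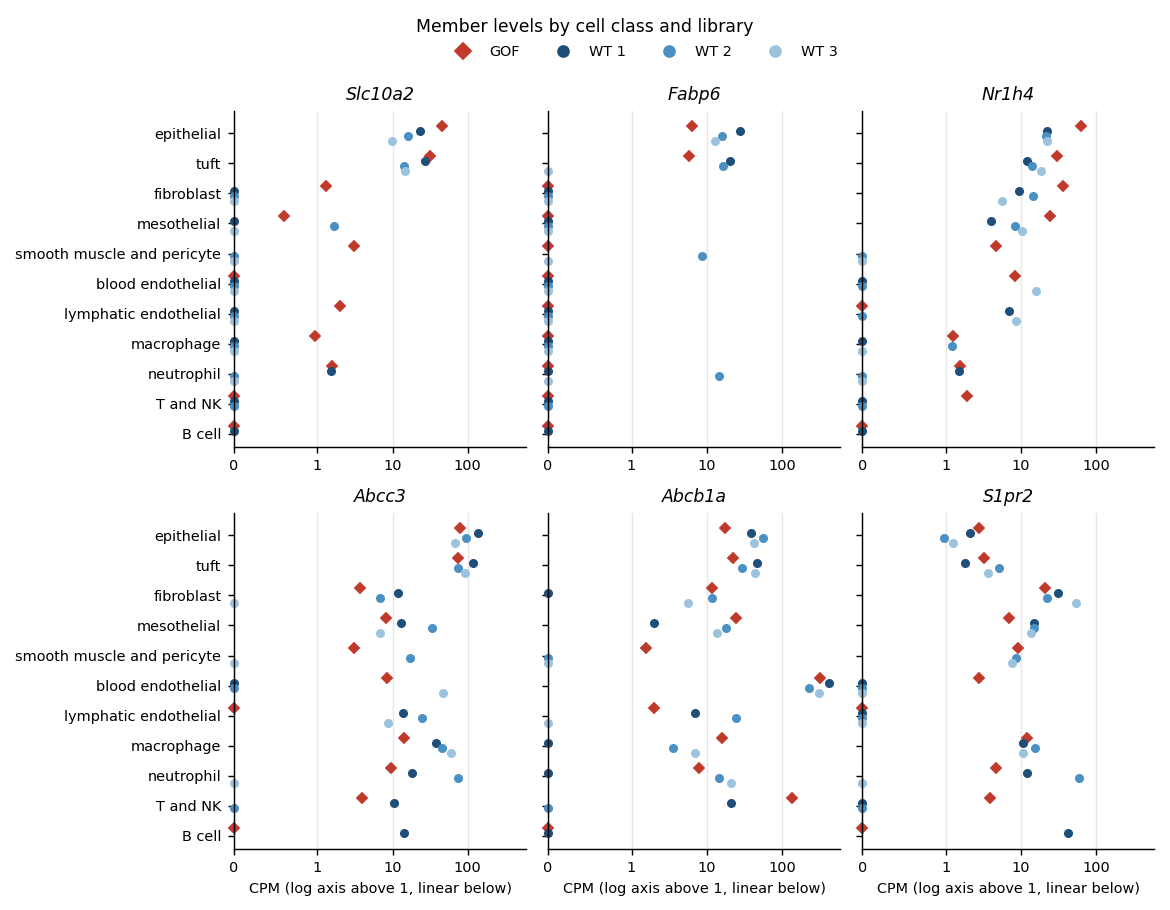
Level of 6 members in CPM (horizontal axis, logarithmic above 1 and linear below) for each cell class with at least 20 cells in a library; each point is 1 library, red diamonds GOF and blue circles WT. Slc10a2 and Fabp6 points stand off 0 mainly in epithelial and tuft cells, Abcb1a peaks in blood endothelium between 231 and 426 CPM, and S1pr2 is higher in fibroblasts than in epithelium in all 4 libraries.

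Within the WT libraries, epithelium was tested against each class holding at least 20 cells per library, with the library as a block, by edgeR's quasi-likelihood test. Against fibroblasts, 4 of the 6 members tested were higher in epithelium and 1 lower, where 32.8% of all genes tested were called. Against macrophages it was 5 higher and 1 lower of 6 (42.8% of all genes called), and against mesothelial cells again 5 and 1 of 6 (38.3%). Against blood endothelium it was 3 higher and 1 lower of 5 (24%). Against lymphatic endothelium 5 of 5 were higher (33.9%), on 38 to 43 WT cells per library. Against neutrophils 4 of 5 were higher (23.4%), on 24 to 543 cells. Slc10a2 and Fabp6 held 0 UMIs in WT fibroblasts, macrophages and both endothelial classes, and Fabp6 also in mesothelial cells. There they passed the filter on low counts through epithelium alone and could only come out higher. WT neutrophils held 1 UMI each of Slc10a2, Fabp6 and Nr1h4 and 2 of Abcb1a, and mesothelial cells 1 of Slc10a2. For Nr1h4, WT macrophages, blood endothelium and lymphatic endothelium held 1, 1 and 2 UMIs. These too passed through epithelium alone and could hardly come out lower, so the counts above include outcomes fixed or nearly fixed in advance.

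S1pr2 was the member lower in epithelium than in fibroblasts (log2 -4.45 ± 0.45 SE, edgeR adjusted p = 2.09e-05), mesothelial cells (-3.24 ± 0.52, adjusted p = 2.19e-04) and macrophages (-3.19 ± 0.63, adjusted p = 4.27e-04). Abcb1a was lower in epithelium than in blood endothelium (-2.45 ± 0.25, edgeR adjusted p = 3.07e-20). Abcc3 was higher in epithelium than in macrophages by a smaller amount (1.04 ± 0.28, edgeR adjusted p = 0.00601) than over fibroblasts (3.93 ± 0.40, adjusted p = 2.22e-05); this gap between contrasts was not itself tested. The macrophage call was lost without WT 1 (log2 0.68, edgeR adjusted p = 0.0957) and with at most 10% mitochondrial UMIs (0.77, adjusted p = 0.107). For Nr1h4, epithelium against fibroblasts gave 1.02 ± 0.38 with an edgeR adjusted p of 0.0653, which passed under 3 of 12 alternatives, among them without WT 2 (0.0211), while mesothelial cells were lower (1.81 ± 0.38, adjusted p = 0.00209).

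Tuft cells could hardly be told from the other epithelial cells by these genes. Of 5 members tested, 1 was called, where 9.56% of all genes were: Nr1h4 was higher in the other epithelium (log2 0.79 ± 0.25 SE, edgeR adjusted p = 0.0440), and this call was lost under 7 of 11 alternatives, among them without WT 1 (adjusted p = 0.638) and without WT 2 (0.204). Slc10a2 differed by -0.05 ± 0.24, with an edgeR adjusted p of 0.939. A p that misses the threshold does not show that the levels were alike.

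**Figure D2:**
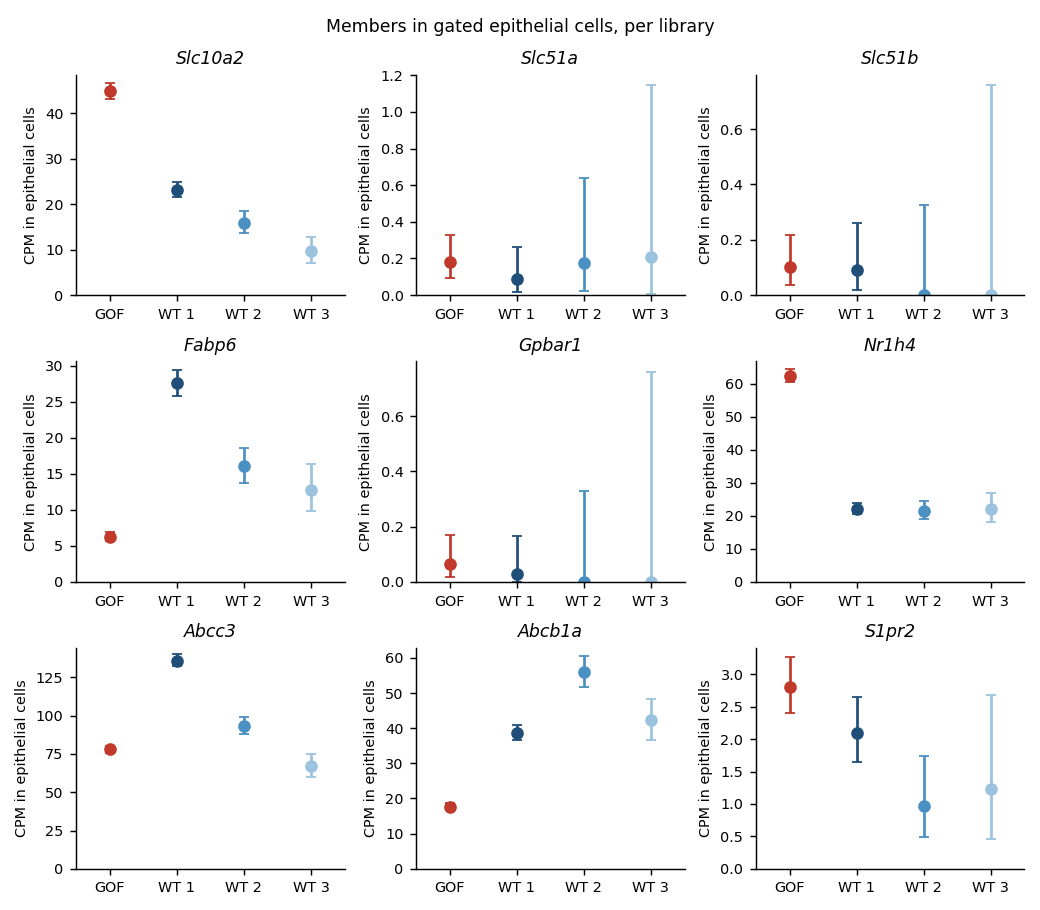
Level of each member in CPM in gated epithelial cells (vertical axes, each from 0), 1 point per library; bars are exact 95% Poisson intervals of the count and cover counting error only. The GOF point lies above the 3 WT points for Slc10a2, Nr1h4 and S1pr2, below them for Fabp6 and Abcb1a, and inside their range for Abcc3.

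The main question of the design was how mosaic β-catenin gain of function changes duct cells. In epithelium 3 of the 6 members tested were called, where 16.3% of all 15536 genes were: Nr1h4 rose, and Abcb1a and Fabp6 fell. The median log2 fold was -0.07 over the 6 members and 0.03 over all genes. Each fit compares 1 GOF library with 3 WT libraries, and assumes that the GOF library varies as they do.

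Nr1h4 was higher in GOF by log2 1.15 ± 0.18 SE (edgeR adjusted p = 0.0130). Without WT 2 the adjusted p was 0.0569. Abcb1a was lower by log2 -1.71 ± 0.27 SE (edgeR adjusted p = 0.0132), and it passed under all 15 alternatives, with folds from -2.03 to -1.20. Fabp6 was lower by log2 -1.95 ± 0.47 SE (edgeR adjusted p = 0.0430). The Fabp6 call was lost with scaling to total UMIs alone (adjusted p = 0.0580) and with scaling factors from genes of at most 5 kb of intron (0.0591).

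Slc10a2 differed by log2 1.08 ± 0.39 SE and did not pass (edgeR adjusted p = 0.109). It did pass under 3 of 15 alternatives: without WT 1 (adjusted p = 0.0191), with short-intron scaling factors (0.0461), and among epithelial cells outside the Nos2 and Cxcl5 gate described further on (0.0267). The values there were 43.0 CPM in GOF and 19, 11.2 and 10.0 in WT. Uptake transporter and cytosolic carrier thus stood on opposite sides of the WT range in the same cells. Abcc3 gave -0.70 ± 0.38 (edgeR adjusted p = 0.242) and S1pr2 0.55 ± 0.61 (adjusted p = 0.553).

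The size of the difference between GOF and WT moved with intron length over all genes. In epithelium the median log2 fold was -0.36 for genes with at most 5 kb of intron, -0.15 for 5 to 20 kb, 0.20 for 20 to 100 kb and 1.35 above 100 kb. Whether intronic reads were counted alike is not given in the sources used here, and the part of this in each member's value was not tested. Abcb1a has 83.0 kb of intron, and its fold was at percentile 2.20 of genes of 20 to 100 kb. Nr1h4 has 77.0 kb and was at percentile 80.0 of the same class. Its folds in tuft cells, fibroblasts and mesothelial cells, none of them called, were at percentiles 87.4, 93.1 and 96.1 of that class. Fabp6 has 5.01 kb and was at percentile 3.05 of the 5 to 20 kb class, and Slc10a2, with 18.0 kb, at percentile 84.3 of the same class.

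**Figure D3:**
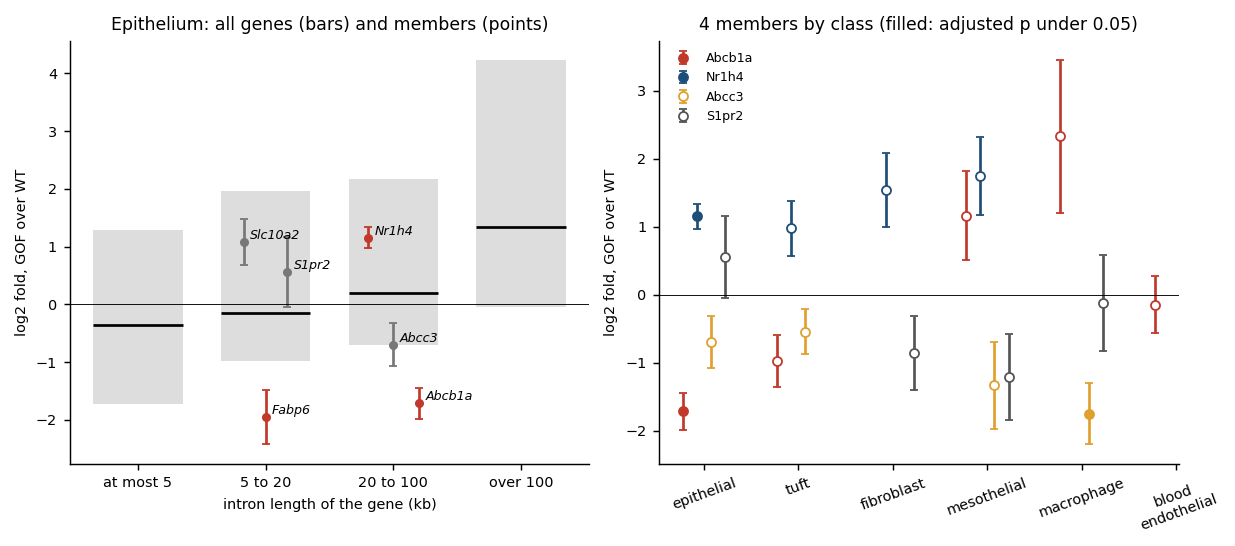
Left, log2 fold of GOF over WT in epithelium by intron length of the gene: grey bars span the 10th to 90th percentile of all genes, black lines are medians, points are 6 members with SE bars, red where called. Right, log2 fold with SE of 4 members in 6 cell classes, filled where the adjusted p was under 0.05. Abcb1a lies below 0 in epithelial and tuft cells and above 0 in mesothelial cells and macrophages. Mesothelial Nr1h4 and macrophage Abcb1a passed the filter on low counts through the GOF library alone.

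Shares of cells with a UMI put GOF on the same side of WT as the levels did for these 4 members. Each cell was thinned to 2000 UMIs, which left out 577 GOF epithelial cells and 127, 153 and 238 in the WT libraries. Slc10a2 was then detected in 8.36% of GOF epithelial cells (exact 95% interval 7.54 to 9.23) and in 3.31%, 3.30% and 2.01% of WT cells. Fabp6 was detected in 1.25% of GOF cells (0.936 to 1.63) and in 5.07%, 2.53% and 2.93% of WT cells. For Nr1h4 the shares were 11.3% in GOF and 4.49%, 3.61% and 5.09% in WT, and for Abcb1a 3.11% in GOF and 8.05%, 9.52% and 7.56% in WT. In macrophages, which should lack the transporter, Slc10a2 was detected in 0.167% of thinned GOF cells (median depth 8180 UMIs, against 7894.5 in GOF epithelium) and in 0 of 83, 109 and 63 WT cells. Taken as 3 counts over the cells, those WT counts of 0 allow up to 3.61%, 2.75% and 4.76% of cells with a UMI. That limit is above the epithelial share in WT 1 and WT 3 and below it in WT 2. Without thinning, Slc10a2 was detected in 29.3% of GOF and a mean of 10.9% of WT epithelial cells.

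**Figure D4:**
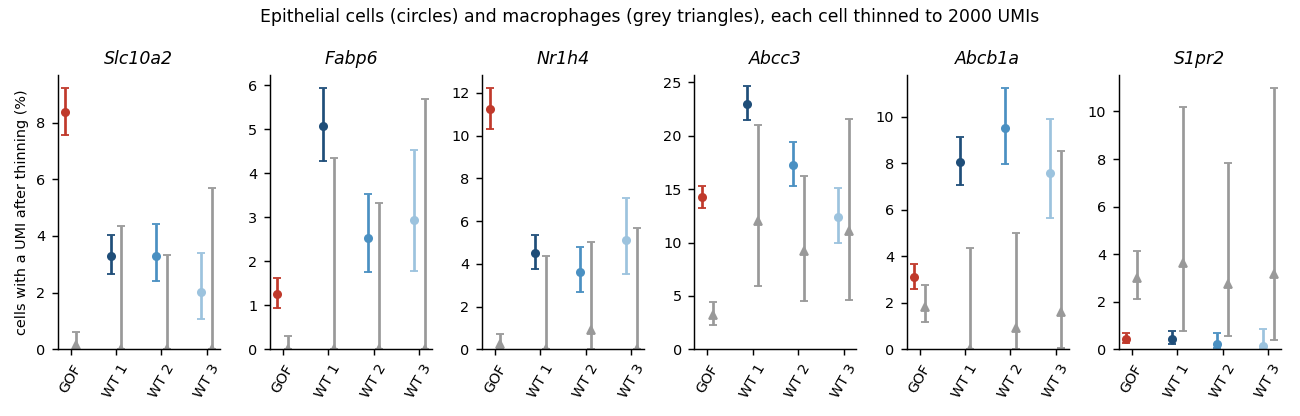
Share of cells with at least 1 UMI of 6 members after thinning to 2000 UMIs per cell (vertical axes in percent); circles are epithelial cells, grey triangles macrophages, and bars exact 95% binomial intervals. GOF epithelium is above WT for Slc10a2 (8.36% against at most 3.31%) and Nr1h4, and below WT for Fabp6 and Abcb1a, while the WT macrophage intervals are wide.

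Carrier and transporter were seldom seen in the same cell at this depth. In WT 1, Fabp6 was detected in 12% of 92 epithelial cells with Slc10a2 (exact 95% interval 6.12 to 20.4) and in 4.83% of 2690 cells without it (4.05 to 5.71). In WT 2 it was 0 of 43 cells (0 to 8.22) against 2.62% of 1260 (1.81 to 3.66). In GOF it was 1.69% of 355 against 1.21% of 3892, with intervals that overlap. Of the libraries given, only WT 1 had intervals apart. The WT 2 interval for cells with Slc10a2 also overlaps that of WT 1, so its 43 cells cannot show a difference between WT 1 and WT 2.

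In the other classes few members passed. In tuft cells 0 of the 5 tested were called by edgeR and 0 by DESeq2, while 12.7% of all genes were, and 3 had an unadjusted p under 0.05. Tuft Fabp6 gave log2 -1.62 ± 0.64 (edgeR adjusted p = 0.121, passing under 4 of 11 alternatives), Abcb1a -0.98 ± 0.38 (0.109) and Nr1h4 0.98 ± 0.40 (0.134). GOF was below the WT libraries for Abcb1a and above them for Nr1h4. In macrophages 1 of 3 was called, against 9.59% of all genes: Abcc3 fell by 1.76 ± 0.45 on the log2 scale (edgeR adjusted p = 0.0295), from 37.7, 45.7 and 59.8 CPM in WT to 14.1 in GOF. It was not called by DESeq2 (adjusted p = 0.0914) or with short-intron scaling factors (0.0787). By edgeR and by DESeq2, 0 members were called in fibroblasts (2 tested, 3.01% of all genes called by edgeR) and 0 in mesothelial cells (4 tested, 11%), with 1 at an unadjusted p under 0.05 in each. Blood endothelial Abcb1a, the 1 member tested there, differed by -0.15 ± 0.42 (edgeR adjusted p = 0.862; 14.4% of all genes called). Mesothelial Nr1h4, at 24.7 CPM in GOF, gave log2 1.75 ± 0.57 with an edgeR adjusted p of 0.0637, and it passed under 6 of 12 alternatives. With 12 WT UMIs, it passed the filter on low counts there through the GOF library alone, and could hardly come out lower in GOF.

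For Abcb1a the difference between GOF and WT was not the same in all classes. Beside the epithelial fall, the mesothelial levels were 24.3 CPM in GOF and 2.02, 18.2 and 13.8 in WT, and the macrophage levels 15.8 CPM in GOF and 0, 3.61 and 7.03 in WT. A test of the difference itself, in 1 fit with the library as a block, gave an epithelial fold lower than the mesothelial one by log2 -2.92 ± 0.51 (edgeR adjusted p = 1.25e-04) and lower than the macrophage one by -4.15 ± 0.73 (adjusted p = 2.58e-06). Of all genes tested, 2.28% and 3.01% were called in these fits, and 1 member in each. Against fibroblasts the difference was -2.26 ± 0.67 and did not pass (edgeR adjusted p = 0.164; 0 members called by edgeR and by DESeq2, 1 at an unadjusted p under 0.05, 0.68% of all genes called by edgeR); without WT 2 the adjusted p was 0.00480. Those comparisons rest on 2, 11 and 4 WT mesothelial UMIs and 0, 3 and 2 WT macrophage UMIs. In the test of macrophages on their own, Abcb1a passed the filter on low counts through the GOF library alone. The mesothelial call was not made by DESeq2 (adjusted p = 0.212), with at most 10% mitochondrial UMIs (0.0886), or without the library block (0.342), and the macrophage call was lost without the block (0.108). The difference for Nr1h4 between epithelium and fibroblasts was -0.31 ± 0.57 (edgeR adjusted p = 1).

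Inside the WT epithelium, Abcb1a, Fabp6 and Abcc3 differed between subsets of cells. The gates use summed UMIs of named marker pairs and none of the members: Car4 with Slc2a2 (413, 207 and 35 cells in WT 1, WT 2 and WT 3), Nos2 with Cxcl5 (2068, 493 and 33 cells) and the mucous genes Muc6 with Gkn3 (25, 55 and 75 cells). The libraries differed widely in makeup: Nos2 and Cxcl5 cells were 74.3%, 37.8% and 5.09% of WT epithelial cells with at least 2000 UMIs, and 15.2% in GOF.

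In Car4 and Slc2a2 cells Abcb1a was at 78.4, 99.0 and 79.5 CPM, against 31.0, 39.9 and 39.1 in the other epithelial cells of the same libraries. It was higher inside the gate in 3 of 3 WT libraries, and in GOF too (31.4 against 15.7 CPM). The difference was log2 1.16 ± 0.10 SE (edgeR adjusted p = 1.25e-04). Fabp6 was lower inside this gate, at 19.6, 10.8 and 9.93 CPM against 29.1, 18.1 and 12.5 (log2 -0.74 ± 0.15, edgeR adjusted p = 0.0112). These were 2 of the 5 members tested, where 12.3% of all genes were called. Fabp6 passed under 5 of 10 alternatives, not without WT 1 (edgeR adjusted p = 0.205), without WT 2 (0.222) or with DESeq2 (0.160), and Abcb1a under 9, and without the library block neither passed.

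In Nos2 and Cxcl5 cells, some of which also met the Car4 and Slc2a2 gate, the order turned. Abcc3 was at 148, 141 and 85.7 CPM inside the gate and 84.8, 55.7 and 63.7 outside (log2 1.00 ± 0.16 SE, edgeR adjusted p = 0.00551). Fabp6 was at 29.99, 21.2 and 17.9 CPM inside and 16.6, 12 and 11.9 outside (0.88 ± 0.13, edgeR adjusted p = 0.00438). Both were higher inside in 3 of 3 WT libraries. Abcb1a was lower by log2 -1.15 ± 0.21 (edgeR adjusted p = 0.0101), at 31.7 and 25.9 CPM inside against 70.5 and 80.0 outside in WT 1 and WT 2, but in WT 3, with 17 UMIs in 33 gated cells, it was higher inside (60.7 against 41.5 CPM). Of 5 members tested 3 were called, against 11% of all genes. Without WT 2, and without the library block, 0 of the 3 passed. Without WT 1 only Abcc3 did (edgeR adjusted p = 0.0421). The Abcb1a call passed under 6 of 10 alternatives and was also lost with DESeq2 (log2 -0.85, adjusted p = 0.294). Slc10a2 gave 0.56 ± 0.22 (edgeR adjusted p = 0.15).

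In the mucous cells Abcc3 was lower and the other members tested did not pass. Abcc3 stood at 11.5, 9.48 and 29.9 CPM in Muc6 and Gkn3 cells against 138, 98.9 and 72.3 outside (log2 -2.41 ± 0.37 SE, edgeR adjusted p = 0.00482), and passed under all 10 alternatives. GOF showed the same order, 23.8 against 81.2 CPM. Slc10a2 rested on 1, 6 and 1 UMIs inside the gate, 2.30, 9.48 and 1.3 CPM, against 23.2, 16.2 and 11.1 outside, and did not pass (-1.84 ± 0.50, edgeR adjusted p = 0.0777). Fabp6 gave -1.45 ± 0.42 (edgeR adjusted p = 0.100), Nr1h4 -0.78 ± 0.28 (0.194) and Abcb1a -0.20 ± 0.22 (0.765). Abcc3 was the 1 member called of 5, where 3.62% of all genes were.

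Cells with high Reg3b and Reg3g, which encode antimicrobial lectins, are given without a test because WT 3 had 16. Abcb1a was lower in them in all 4 libraries: 6.38 against 20.6 CPM in GOF, and 14.5 against 45.0, 13.7 against 63.6 and 17.8 against 43.7 in WT. Abcc3 was higher in them in all 4: 87.7 against 75.6 CPM in GOF, and 168 against 128, 176 against 78.3 and 130 against 62.5 in WT. Fabp6 in GOF was 13.2 CPM inside this gate and 4.54 outside. Over the WT libraries it ranged from 17.2 to 31.5 CPM inside and from 12.1 to 26.6 outside. Cells in the Lgr5 and Notum gate, which also sums Axin2 and Nkd1, were 1358 in GOF and 2, 2 and 0 in WT. Within GOF they had 50.1 CPM Slc10a2 against 41.7 in the other epithelial cells, 6.37 against 6.21 CPM Fabp6, 54.9 against 66.4 CPM Nr1h4 and 13.2 against 20.6 CPM Abcb1a. Fabp6 and Slc10a2 in the GOF cells outside that gate thus stayed beyond the WT range on the same sides.

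**Figure D5:**
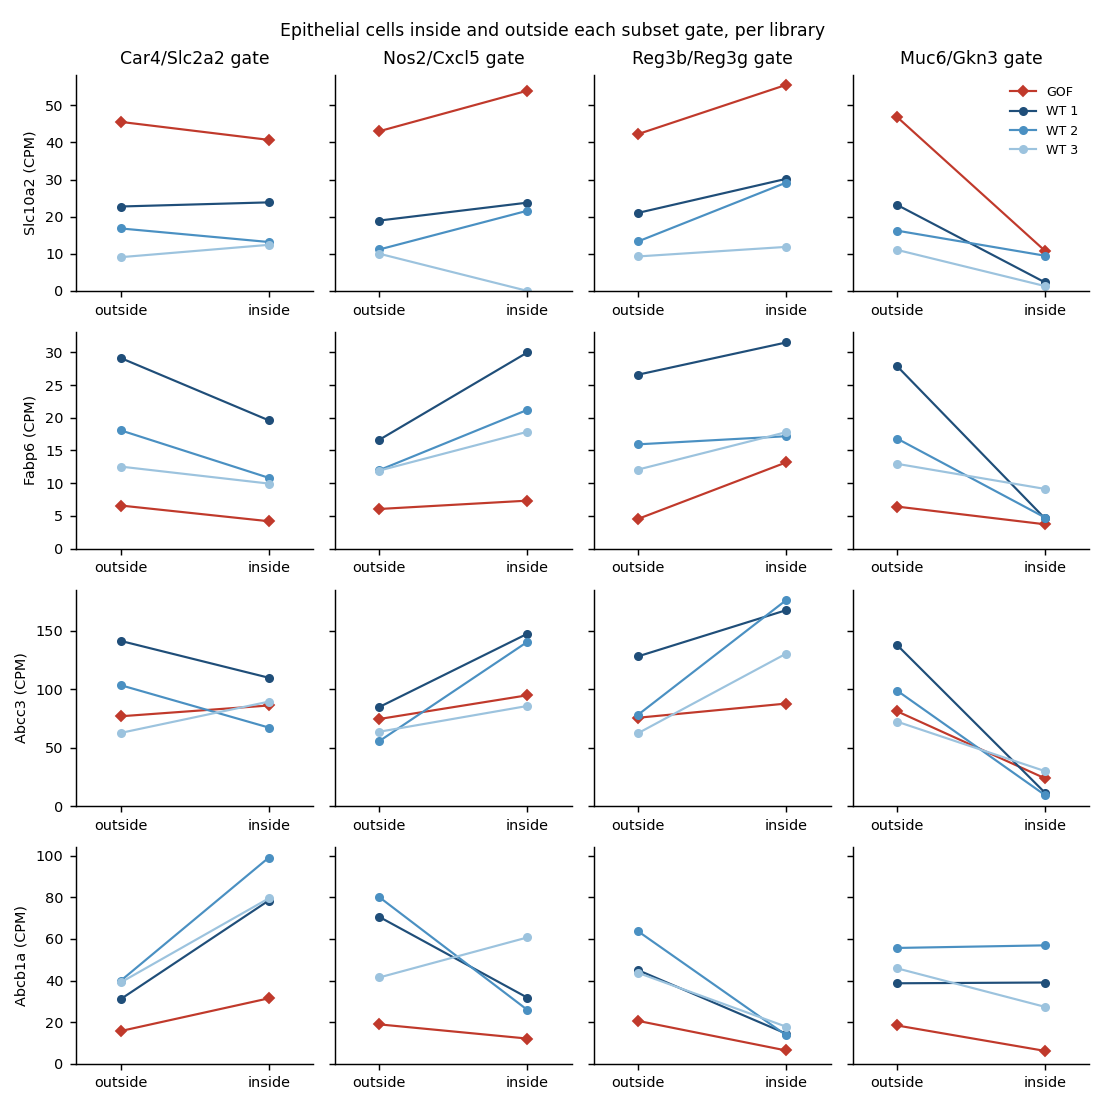
Level in CPM (vertical axes from 0, shared along a row) of 4 members in epithelial cells outside and inside 4 subset gates, each line 1 library, red GOF and blue WT. Abcb1a lines rise into the Car4/Slc2a2 gate and fall into the Reg3b/Reg3g gate in all 4 libraries, and Abcc3 lines fall into the Muc6/Gkn3 gate in all 4.

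The wider pathway was read from 43 further genes of uptake, export, sensing, the FGF15 axis, secretion and synthesis. In epithelium 31 were tested between GOF and WT by edgeR, 6 were higher in GOF and 0 lower, where 16.3% of all genes were called and 12.2% were called higher, with a median log2 fold of 0.64 against 0.03 over all genes. The 6 fell in 5 of the 6 groups: 1 of 4 uptake carriers, 1 of 8 export pumps, 1 of 8 sensors and partners, 2 of 6 secretion genes and 1 of 3 synthesis genes tested. The 6 were Hsd3b7, a bile acid synthesis enzyme (15.6 CPM in GOF against 0.207, 0.177 and 0.206), the muscarinic receptor Chrm3 (561 against 17.9, 29.5 and 38.9), the adenylyl cyclase Adcy8 (88.5 against 18.7, 13.4 and 13), the flippase Atp8b1 (143 against 56.1, 49.0 and 41.2), the chloride channel Ano1 (301 against 95.7, 118 and 55.8) and the hepatocyte uptake carrier Slc10a1 (4.50 against 0.355, 0.532 and 1.03). Intron length was over 100 kb for 4 of them (Chrm3, Adcy8, Atp8b1 and Ano1), the class with the median fold of 1.35. The part of counting in these values was not tested. Hsd3b7, at most 0.207 CPM in WT, passed the filter on low counts through the GOF library alone. Genes that passed in this way could hardly come out lower in GOF, so the count and the median above describe and do not test a direction. Hsd3b7, with 0.43 kb of intron, was also called higher in tuft (edgeR adjusted p = 0.00373) and mesothelial cells (0.0115) of GOF. Those fits use the same lone GOF library and the same filter, so they are not separate evidence. The GOF and WT counts also differ in gene reference (32285 and 31053 genes), and the part of this in Hsd3b7 was not tested.

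Cyp7a1, the rate-limiting enzyme of classical bile acid synthesis, and Cyp8b1, the sterol 12-hydroxylase needed for cholic acid, were at 0 UMIs in the epithelium of all 4 libraries. Nr0b2, an FXR target that encodes the repressor SHP, stood at 2.39 CPM in GOF and 1.01, 7.71 and 4.32 in WT (log2 -1.16 ± 1.04, edgeR adjusted p = 0.467). Fgf15, another FXR target in the ileum, was at 1.26 CPM in GOF and 0.652, 0.532 and 0 in WT (1.06 ± 0.96, edgeR adjusted p = 0.471). Neither was called, both SEs are wide, and Fgf15 rests on 28 WT UMIs. Nr0b2 and Fgf15 have 2.03 and 1.37 kb of intron, against 77.0 kb for Nr1h4. Whether their levels follow the receptor gene was not tested.

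Of the same 43 genes, 20 were tested in the Car4 and Slc2a2 gate and in the Nos2 and Cxcl5 gate of WT. In Car4 and Slc2a2 cells Ano1, Slco2a1, Fgfr4 and Adcy6 were higher and Abcc4, Adcy8 and Cftr lower, 7 of 20 where 12.3% of all genes were called by edgeR. In Nos2 and Cxcl5 cells Abcc4, Adcy8, Slco3a1 and Abcg2 were higher and Slco2a1 and Fgfr4 lower, 6 of 20 where 11% of all genes were called. Over all genes the calls in the Nos2 and Cxcl5 gate went from 1250 to 142 without WT 1, 133 without WT 2 and 87 without the library block. The pumps Abcc4 and Abcg2 thus went with Abcc3, and the prostaglandin and organic anion carrier Slco2a1 with Abcb1a. Both gates held 149, 26 and 2 of the same cells in WT 1, WT 2 and WT 3. They also overlap in the cells they leave out, so the lists are not independent. In Muc6 and Gkn3 cells 18 were tested and Slco3a1 alone was called, where 3.62% of all genes were, lower by log2 -1.71 ± 0.31 (edgeR adjusted p = 0.0113).

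Genes whose levels over 65 WT sums were most like a member's are named by Pearson r of log levels, as a description. A sum is a class of a library, or its epithelial cells inside or outside a subset gate. For Slc10a2 they were Mogat2 (0.945), Pklr (0.944) and Trim15 (0.934), for Fabp6 Ugt2a3 (0.965), Spink4 (0.936) and Dsc2 (0.926), and for Nr1h4 Slc22a18 (0.919), Pcx (0.895) and Tnk1 (0.894). For Abcc3 the first was Plet1 (0.848), and for Abcb1a it was Slco2a1 (0.844). The sums share libraries and depth, and most contrast epithelial with other cells. The same WT epithelial cells enter many of them, since each subset gate sums them again.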

How the data were processed

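Droplet 3′ single-cell RNA counts of 1 GOF and 3 WT mouse common bile duct libraries were used. The deposited matrices hold UMI counts, made by the authors with Cell Ranger 7.0.0 (GOF, 32285 genes) and 3.0.2 (WT, 31053 genes), per the file headers; the submitters' processing notes name Cell Ranger 7.1 and mm10. Whether intronic reads were counted is not given in the sources used here. From these, 30406 shared genes were kept and cells with at least 500 genes and at most 25% mitochondrial UMIs. Doublets were removed with Scrublet scores (scanpy 1.11.5), at 0.8% per 1000 barcodes. Cells were gated on marker lists (at least 3 markers detected, 4 for tuft cells, and a score margin of 0.15), with thresholds set after marker data were seen, and between 95.3% and 98.8% of gated cells had the same class in Leiden clusters. Subset gates needed at least 2 summed UMIs and 2 per 10000 of their markers in cells with at least 2000 UMIs. The markers were the named pair, and for the Lgr5 and Notum gate also Axin2 and Nkd1.

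Sums of UMIs over all cells of a class in a library were tested, with the library as the replicate, with edgeR 4.0.16 in R 4.3.3 (quasi-likelihood, TMM, filterByExpr, Benjamini-Hochberg adjustment over all genes tested, threshold 0.05). DESeq2 1.42.0 was an alternative. In all 21 comparisons were fitted. WT comparisons between classes or subsets kept the library as a block, since both sides are cells of the same library. The tests were tested on simulated data. Intervals are exact, at 95%, and cover counting error only; the floor for a count of 0 is 3 counts. Gene models are GENCODE M21 on GRCm38. The members and lists were chosen with earlier results of these data known, and genes named beyond the members are the called genes of the pathway list, its Cyp7a1, Cyp8b1, Nr0b2 and Fgf15 (chosen after their values were seen), and the 3 genes most like a member.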

Additional observations from a re-analysis of the deposited data

Results flagged for a closer look

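Abcb1a differed between GOF and WT in opposite directions in epithelium and in mesothelial cells, and the test of that difference passed. The epithelial log2 fold was lower than the mesothelial one by -2.92 (edgeR adjusted p = 1.25e-04), on 163 GOF and 2, 11 and 4 WT mesothelial UMIs. Against macrophages the difference was -4.15 (edgeR adjusted p = 2.58e-06), on 179 GOF and 0, 3 and 2 WT macrophage UMIs. The fold of Abcb1a alone passed neither in mesothelial cells (1.16 ± 0.65, adjusted p = 0.308) nor in macrophages (2.33 ± 1.13, adjusted p = 0.233). Among genes of 20 to 100 kb of intron, the Abcb1a fold was at percentile 91.6 in mesothelial cells and 97.0 in macrophages. In epithelium it was at 2.20. In macrophages Abcb1a passed the filter on low counts through the GOF library alone, and could hardly come out lower in GOF there. The part of counting software in these percentiles was not tested. Both second classes were added after seeing the data.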

How the results depend on the processing

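Of 773 recomputed single-gene values, 695 kept their direction and side of the threshold, 33 lost their call, 34 gained one and 11 turned direction, none of which passed before or after. Those 11 were tuft Slc10a2 between GOF and WT, -0.032 with Leiden clusters; macrophage S1pr2, 0.25 with short-intron scaling; WT epithelium against tuft, Slc10a2 0.015 with doublets kept and 0.11 with a gate margin of 0.3, and over left-out libraries -0.17 to 0.033, with Abcb1a -0.088 to 0.67; Slc10a2 in the Car4 and Slc2a2 gate, 0.20 at 5 per 10000; Nr1h4 in the Nos2 and Cxcl5 gate, -0.21 to 0.0038; and differences of effect for Nr1h4 against fibroblasts, 0.089 at 10% mitochondrial UMIs, Abcc3 against mesothelial cells, -0.30 to 1.22, and Nr1h4 against macrophages, -6.44 to 0.70.

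Counts of genes called moved past 1.5 times as follows; the cause was not tested. Leaving out 1 WT library gave 1655 to 3391 for GOF epithelium (2527), 0 to 988 for fibroblasts (289), 606 to 1230 for macrophages (768), 410 to 932 for WT epithelium against tuft (1040), 1583 to 1627 against blood endothelium (2485), 374 to 899 for Muc6 and Gkn3 (362), 419 to 1841 for Car4 and Slc2a2 (1383), 133 to 2356 for Nos2 and Cxcl5 (1250), and 150 to 333 and 279 to 437 for differences of effect against fibroblasts (102) and macrophages (450). DESeq2 gave 427 for tuft, 430 for mesothelial cells, 490 for macrophages, 608 and 1580 for WT epithelium against tuft and blood endothelium, 515 and 358 for the Car4 and Nos2 gates, and 35, 82 and 85 for differences against fibroblasts, mesothelial cells and macrophages. No filter gave 946 for fibroblasts, 1395 for macrophages, 783, 2132 and 2221 for the Muc6, Car4 and Nos2 gates and 212 for the difference against fibroblasts. At most 10% mitochondrial UMIs gave 1914, 2171, 574 and 2768 for WT epithelium against fibroblasts, mesothelial cells, blood endothelium and macrophages, and 38, 137 and 262 for the 3 differences. Short-intron scaling gave 615 for fibroblasts, Leiden clusters 538 for the difference against mesothelial cells, and the gate at 5 per 10000 gave 652 for Car4.

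No paired analysis was possible for GOF against WT, because there is 1 GOF library and no label links it to a WT library. In comparisons blocked on the library, fits with no replicate block gave 373 genes for WT epithelium against tuft, 98, 18 and 87 for the Muc6, Car4 and Nos2 gates and 0, 14 and 2 for the 3 differences, with 0 members for tuft, Car4, Nos2 and the 2 differences with mesothelial cells and macrophages.

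Counts of members moved too. Tuft (0) gave 1 with Leiden clusters or no filter, 2 with doublets kept and 0 to 2 over left-out libraries. Mesothelial cells (0) gave 1 with Leiden clusters, short-intron scaling, doublets kept, no filter or total-UMI scaling, and 0 to 1 over left-out libraries. Macrophages (1) gave 0 with DESeq2 or short-intron scaling and 2 with no filter. WT epithelium against tuft (1) gave 0 with DESeq2, Leiden clusters, margin 0.3 or total-UMI scaling, and 0 to 1 over left-out libraries. With at most 10% mitochondrial UMIs, fibroblasts gave 3, blood endothelium 1, macrophages 2 and the mesothelial difference 0. DESeq2 gave 2 for blood endothelium, 1 for Car4 and 0 for the mesothelial difference. Car4 gave 1 at 5 per 10000 and 1 to 3 over left-out libraries, Nos2 0 to 4, Muc6 3 with no filter and 1 to 3, blood endothelium 2 to 2, and the difference against fibroblasts 1 with no filter and 0 to 1.

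The excess of GOF over the WT mean share of epithelial cells was 5.49 points for Slc10a2, 2.47 at 1000 UMIs and 18.5 unthinned. It was 3.69 and 26.8 for Nr1h4, -1.69 and -6.50 for Abcb1a, and -6.24 unthinned for Fabp6. At most 10% mitochondrial UMIs was not run for tuft cells or subsets, which left under 5 cells in a library. The gate margin, the stricter subset gate, the epithelium outside each gate and the second classes were chosen after seeing the data. At 0 to 11 epithelial UMIs per library, Slc51a, Slc51b and Gpbar1 could not be compared between GOF and WT epithelium.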

Other observations

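The members' counts lay in different cells in the deepest library. Of the GOF UMIs of each gene in cells kept, epithelium held 93.7% for Slc10a2, 93.3% for Fabp6 and 56.5% for Abcb1a, while fibroblasts held 49.4% for Gpbar1. In WT, epithelium held 93.2%, 91.4% and 72.3% of Slc10a2 and 89.7%, 86.9% and 63.5% of Abcb1a in WT 1, WT 2 and WT 3. WT 3 had the most cells that met no gate, 24.6%, and 13 of its Slc10a2 UMIs lay in them.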
